A study of Mus musculus with 10 samples.

Results

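Gene expression was compared between primary mouse marrow progenitors immortalized by the fusion oncogene MLL-ENL, read on 1 array, and progenitors immortalized by the pair of homeobox genes HoxA9+Meis1, read on 3 arrays that the labels number as clones 1 to 3. These 4 arrays are 4 of the 10 in the series. The members were chosen by the oncogene in the sample labels and hold every gene the array measured, 14233 after a filter that asked for a signal above 369, the 40th percentile of all signals, in at least 3 of the 10 arrays. The other 6 arrays, 3 clones of NUP98-NSD1 cells and 3 of HoxA9 cells, entered the estimate of the spread and are given beside single genes. All of these cultures had been derived in medium with Stem Cell Factor and without GM-CSF, and total RNA was read on Affymetrix Mouse Genome 430 2.0 arrays. The MLL-ENL array carries no clone number, and for no clone do the labels name the animal it came from, so the spread that the p-values rest on may be technical. In the HoxA9+Meis1 cells both homeobox genes were the immortalizing agents, so the signal of Hoxa9 and Meis1 probe sets there can hold an introduced copy.

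MLL is a histone methyltransferase that keeps homeobox genes of the Hox-A cluster transcribed, and ENL is a subunit of complexes that release paused RNA polymerase. The MLL-ENL fusion joins the DNA-binding end of MLL to ENL and is known for holding the Hox-A cluster and Meis1 on in leukaemia. HoxA9 and its cofactor Meis1 are thought to carry much of that effect, and together they block the differentiation of myeloid progenitors without a fusion protein.

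The 2 groups differed in technical measures. The mean of the hybridization control probe sets, on the log2 scale, was 14.003 on the MLL-ENL array against 13.17 to 13.41 on the HoxA9+Meis1 arrays, and 14.03 to 14.12 on the NUP98-NSD1 arrays. The median signal was 440.3 on the MLL-ENL array and 579 to 644 on the HoxA9+Meis1 arrays, while the highest signal was 253754 against 158345 to 162300. The ratio of 3′ to 5′ signal of beta-actin, a measure of RNA integrity, was 1.31 against 1.09 to 1.15. MLL-ENL and HoxA9+Meis1 therefore lie in different sets of hybridization control levels, and set and oncogene cannot be told apart. MLL-ENL and NUP98-NSD1 share 1 set, so NUP98-NSD1 values are printed beside the leading genes below. All 11 markers of myeloid progenitors, among them the pan-leukocyte phosphatase Ptprc and the granule enzyme Mpo, lay above the filter level in the MLL-ENL array and in the 3 clones, with 2723 for Cd34 in MLL-ENL as the lowest of these values.

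Of the 14233 genes, 3083 (21.7%) passed the test at an adjusted p of 0.05, by limma with Benjamini-Hochberg adjustment. MLL-ENL was higher in 1330 (9.34%) and lower in 1753 (12.3%). Every list count below is to be read beside these 2 shares of all genes. Differences are of log2(signal + 32) throughout. The test borrows the spread of MLL-ENL from the clones of the other groups, since 1 array has none of its own. Every one of these 3083 genes also lay outside the range of the 3 clones, as did 77.9% of all genes (31.3% above it and 46.6% below). A stricter rule without a test asked that MLL-ENL lie at least 2-fold beyond the nearest clone. By that rule 556 genes (3.91%) were above and 1711 (12%) below, and 373 and 1048 of them were also called. The MLL-ENL array spread its signals more widely than the clones: the median log2 difference was 0.03 among genes brighter than the median gene, -0.47 among dimmer ones and -0.14 over all. With each array shifted to a common median signal that median became 0.32, and the calls turned from 1330 higher and 1753 lower to 2312 higher and 719 lower. Without HoxA9+Meis1 clone 2, 1164 genes were called lower.

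**Figure D1:**
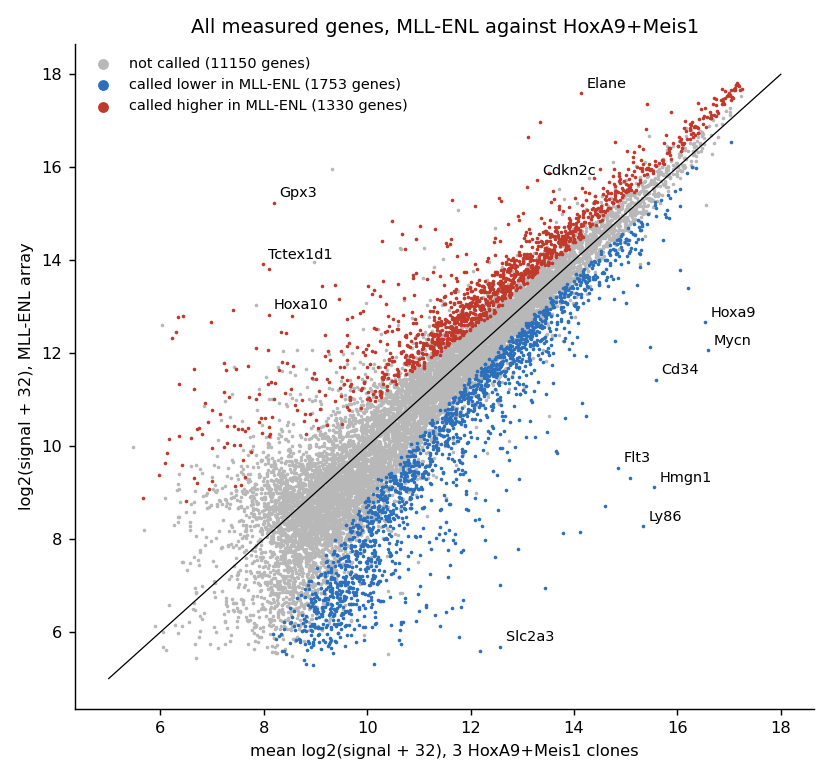
Each point is 1 of the 14233 genes, with the mean log2(signal + 32) of the 3 HoxA9+Meis1 clones on the x axis and the MLL-ENL array on the y axis. Red marks the 1330 genes called higher, blue the 1753 called lower, and the line marks equal values; the cloud bends below the line among dim genes and above it among bright ones.

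The filter could not be met by the single MLL-ENL array alone, so genes lit in MLL-ENL cells only were left out. There were 205 left-out genes above the filter level in MLL-ENL, and 89 of them lay at least 2-fold above all HoxA9+Meis1 clones. The brightest, chosen after its value was seen, was Smpdl3a, a secreted phosphodiesterase, with 35827 in MLL-ENL, 8146 in 1 HoxA9 clone and at most 136 in the other 8 arrays. The next brightest was Krtap3-1 at 1185. In the other direction, 14 genes met the filter through the 3 HoxA9+Meis1 clones alone, of which 7 were called lower.

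The genes that stood furthest above HoxA9+Meis1 ranged from secreted enzymes to transporters. Gpx3, the glutathione peroxidase of plasma, read 38529 against 413, 197 and 213 in clones 1, 2 and 3, a rise of at least 92.8-fold with the 2 clones below the filter level set at that level (log2 difference 7.04 ± 1.68, SE, n = 1 and 3, adjusted p = 0.016 by limma). The 3 clones and the 3 NUP98-NSD1 cultures (146, 78.1 and 448) were all dim, while 2 of the 3 HoxA9 clones were bright (434, 18136 and 16383). Wherever clones lay below the filter level, the fold was set against that level, as a lower bound. Tctex1d1, of a family of dynein light chains, read 15444 against 238, 204 and 218, a rise of at least 38.6-fold (adjusted p = 0.016), and 148, 329.8 and 42.7 in NUP98-NSD1. 9630013D21Rik, a transcript without a known role, read 7707 against 188, 65.3 and 197, and rose at least 19.3-fold (adjusted p = 0.0041), with 358, 121 and 25.5 in NUP98-NSD1. Penk, the precursor of the enkephalin peptides, rose from 203, 407 and 167 in the clones, 1 of them above the filter level, to 14436, at least 35.0-fold (adjusted p = 0.011), with 106, 57.6 and 1153 in NUP98-NSD1. In each of these 4 genes the MLL-ENL value was also above all 9 other arrays. The HoxA9 clones were not all dim, however, with 330, 7015 and 6359 for Tctex1d1 and 1271, 5653 and 4075 for Penk. For 9630013D21Rik they read 764, 436 and 437.

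Among the other leading rises, too, several were of genes that HoxA9 clones also expressed. Slc36a4, an amino acid transporter, read 5557 against 108, 45.1 and 13.6 (rise of at least 13.9-fold, adjusted p = 6.3e-04 by limma), with 7462, 7162 and 7790.3 in the HoxA9 clones and 346, 511 and 161 in NUP98-NSD1. Mreg, a regulator of organelle transport, read 5068 against 23.4, 68.3 and 42.1 (rise of at least 12.7-fold, adjusted p = 0.0069), with 1608, 17030.3 and 18302 in the HoxA9 clones and 667, 892 and 2688 in NUP98-NSD1. Mdfic, a transcriptional modulator, read 3178 against 75.5, 47.8 and 85.4 (adjusted p = 0.0030), with 3197, 2363 and 1391 in the HoxA9 clones and 140.1, 464 and 879.6 in NUP98-NSD1. These 3 genes were thus not high in MLL-ENL alone. The ribonuclease Rnase2a, of the eosinophil-associated family, read 6451 against 57.7, 51.9 and 235 and rose at least 16.2-fold (adjusted p = 0.0037), above all 9 other arrays, with 267, 266 and 783 in NUP98-NSD1. A further 3 rises lost their call without a clone. The heme-binding protein gene Hebp1 read 7007 against 65.4, 49.3 and 34.8 (rise of at least 17.5-fold, adjusted p = 0.030), and its adjusted p was 0.056, 0.060 and 0.056 without clones 1, 2 and 3. For Ugt8a, the galactosyltransferase of myelin lipids, the signal was 7139.8 against 59.6, 78.2 and 32.6 (rise of at least 17.9-fold, adjusted p = 0.028, and 0.056, 0.053 and 0.054 without clones 1, 2 and 3). For the AMP deaminase Ampd3 it was 2534 against 35.4, 78.6 and 41.9 (rise of at least 6.39-fold, adjusted p = 0.022, and 0.0504 without clone 1). The NUP98-NSD1 clones read 83.4, 52.8 and 23.9 for Hebp1, 1735, 1403 and 1057 for Ugt8a and 359.8, 549.8 and 1518 for Ampd3. The HoxA9 clones read 53.3, 2360 and 6817 for Hebp1, 52.7, 8133 and 599 for Ugt8a and 173, 44.3 and 1222 for Ampd3. For Ugt8a, HoxA9 clone 2 thus lay above MLL-ENL. For Rnase2a the HoxA9 clones read 1897, 1319 and 370.

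The deepest falls were of genes that all 3 HoxA9+Meis1 clones expressed at high level. Ly86, the partner of a Toll-like receptor homologue on B cells and myeloid cells, read 278 against 47073, 40593 and 36405, a fall of at least 103-fold (adjusted p = 5.4e-04 by limma), and 3091, 3334 and 6920.2 in NUP98-NSD1. The HoxA9 clones read 106, 532 and 596 for Ly86, on both sides of MLL-ENL. Flt3, the receptor tyrosine kinase of early progenitors, read 709 against 34997, 30939 and 23470.2, a 39.7-fold fall (log2 difference -5.31 ± 0.40, adjusted p = 1.2e-04). The NUP98-NSD1 clones lay between, at 3128, 4193 and 2227, and the HoxA9 clones at 1047, 702 and 1429.9. Ptprcap, which binds the CD45 phosphatase, read 249 against 16479, 16869 and 10169 (fall of at least 35.3-fold, adjusted p = 1.2e-04), and the membrane proteolipid gene Plp2 607 against 43079.6, 35202 and 26948 (fall of 54.0-fold, adjusted p = 3.0e-04). MLL-ENL was far below all 3 clones in each, and below the NUP98-NSD1 clones, which read 9816, 11376 and 4946 for Ptprcap and 28893, 26672 and 40965 for Plp2. The semaphorin receptor Plxnb2 read 97.7 against 7894, 7450.2 and 3757 (fall of at least 15.1-fold, adjusted p = 0.0014) and BC064078, an uncharacterised transcript, 251 against 25108, 18562 and 11992 (fall of at least 44.3-fold, adjusted p = 0.0039). For these last 2 genes the NUP98-NSD1 arrays were low too, at 443, 933 and 1311 and at 208, 665 and 255. The HoxA9 clones read 45.6, 185 and 199 for Plxnb2 and 1404, 182 and 1815 for BC064078.

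Hmgn1, a nucleosome-binding protein that loosens chromatin, fell to just above the filter level in MLL-ENL cells. It read 525 against 43682, 46958 and 53945, an 86.3-fold fall (log2 difference -6.43 ± 1.01, adjusted p = 0.0026 by limma), and 84614, 93608 and 67873 in NUP98-NSD1. All 3 of its kept probe sets were called lower, with 432, 525 and 722 in MLL-ENL and 33609 or more in each HoxA9+Meis1 clone. The HoxA9 clones read 32426, 2683 and 22808 on the brightest of these probe sets. Slc2a3, a high-affinity glucose transporter, read 19.5 against 3999, 4074 and 13728, a fall of at least 15.2-fold (adjusted p = 6.4e-04; the bound without clone 3 was 10.1-fold), and was below all 9 other arrays. Of its 4 kept probe sets 3 were called lower, all with a suffix for probes that can match several transcripts. The unsuffixed 1421924_at read 64.4 against 541, 273 and 1223 and was not called (log2 difference -2.65, adjusted p = 0.080 by limma over all probe sets). With suffixed probe sets left out the gene was not called. Ddx4, an RNA helicase of germ cells, read 16.5 against 1919, 6429 and 7956, a fall of at least 11.6-fold. The bound without clone 1 was 17.9-fold. The NUP98-NSD1 and HoxA9 clones lay at 170 or less. Ddx4 was thus 1 of the 14 genes that met the filter through the 3 HoxA9+Meis1 clones alone. Its call is no independent support for the fall. Ifitm1, an interferon-induced membrane protein, read 384 against 25937, 76099 and 7649.7, a 59.5-fold fall (adjusted p = 0.0044) that was 33.9-fold without clone 2 and 107-fold without clone 3. For Ifitm1 the HoxA9 clones read 549, 145 and 807 and the NUP98-NSD1 clones 44318, 42171 and 40240.4, and for Slc2a3 the NUP98-NSD1 clones read 14514, 6393 and 22039.

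**Figure D2:**
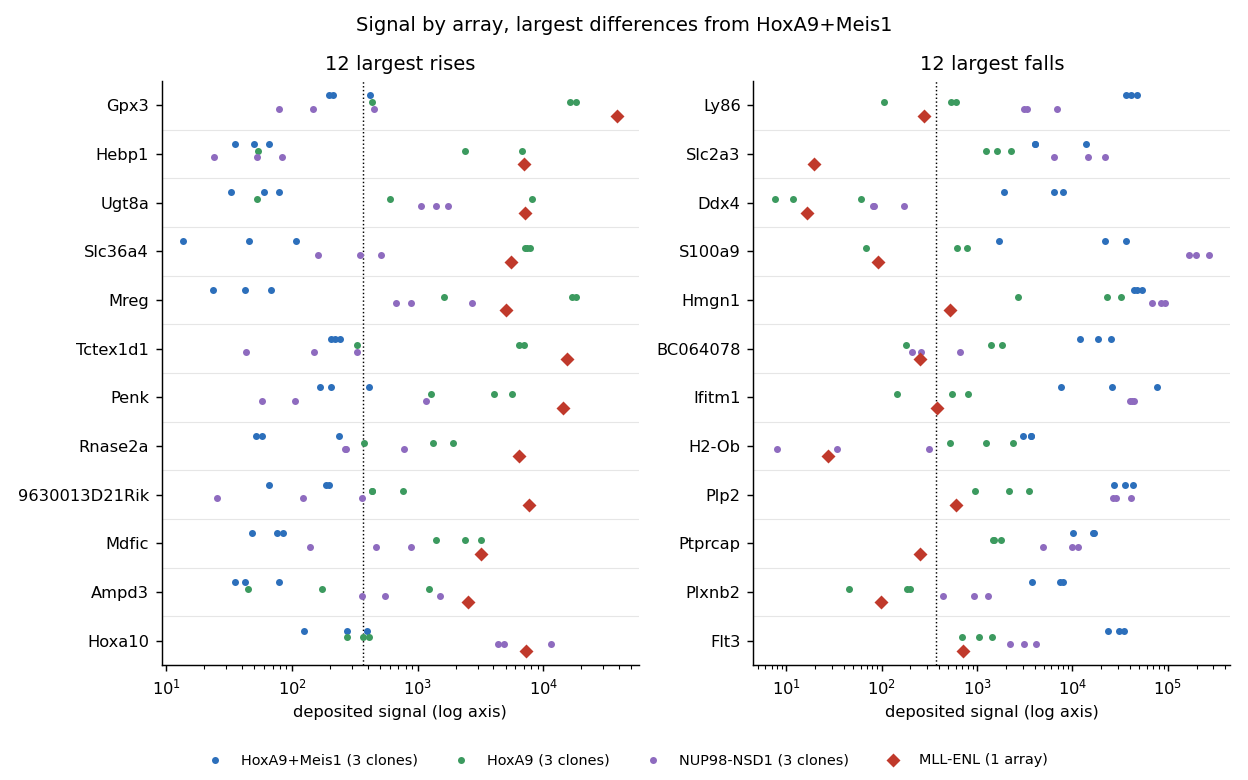
Deposited signal on a log axis for the 12 largest called rises (left) and falls (right), ordered by log2 difference; each point is 1 array, the red diamond is MLL-ENL and the dotted line is the filter level of 369. The HoxA9+Meis1 clones lie to 1 side of the diamond in every gene, while HoxA9 or NUP98-NSD1 clones reach it in several.

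The Hox-A cluster showed opposite differences on different probe sets. Of 7 measured Hox-A genes, 2 were called higher and 1 lower (median log2 difference 0.38 beside -0.14 over all genes). Hoxa10 read 7221 against 396, 272 and 125, a rise of at least 17.7-fold with 1 of the 3 clones above the filter level (log2 difference 4.73 ± 0.62, adjusted p = 0.0013 by limma), and 4859, 4324 and 11545 in NUP98-NSD1. Its called probe set carries a suffix for probes that match several transcripts of the gene, and the other one read 409 against 401, 339 and 455. Hoxa7 read 2096 against 117, 124 and 148, a rise of at least 5.30-fold (adjusted p = 0.010). Both fusion cultures stood above both homeobox-gene cultures for Hoxa10, and the HoxA9 clones lay at 272, 368 and 409.

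For Hoxa9 itself the brighter probe set, 1421579_at, read 6478 against 91143, 89613 and 103499 (log2 difference -3.86 ± 0.32, adjusted p = 1.5e-04 by limma over all probe sets). The second, 1455626_at, read 35209 against 25.7, 26.7 and 29.3, a rise of at least 87.8-fold (adjusted p = 1.2e-06). The NUP98-NSD1 clones read 6783, 6872 and 8481 on the first and 32131, 31804 and 36931 on the second, close to MLL-ENL on both. So the first was bright in the cultures given HoxA9 and the second was dark there. For Hoxa5 the brighter probe set read 3189 against 5435, 4839 and 4828 and was not called (log2 difference -0.65, adjusted p = 0.14), and the other, 1448926_at, read 1576 against 239, 117 and 64.1, a rise of at least 4.01-fold (adjusted p = 0.0037). Hoxa3 (892 against 534, 548 and 440.3), Hoxa11 (222 against 614, 773 and 693) and Hoxa13 (413 against 284, 302 and 345) were not called.

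Meis1 also depended on the probe set. The set 1450992_a_at read 10159.6 against 573, 687 and 558 (log2 difference 4.004 ± 0.36, adjusted p = 2.3e-04 by limma), so MLL-ENL was the highest, above NUP98-NSD1 at 6267, 5655 and 4214, with the HoxA9 clones at 16.7, 27.9 and 20.6. The HoxA9+Meis1 clones, to which Meis1 had been added, were far below both fusions on this probe set. The other 2 Meis1 probe sets gave -0.05 and -0.21 and were not called. The first of them, 1443260_at, had the highest mean and stood for Meis1 as a gene. The cofactor count that follows therefore does not hold the rise on 1450992_a_at. With an offset of 100, the 60th percentile filter or the mean of the kept probe sets, Meis1 was called higher as a gene. Of 10 cofactor genes of the same homeobox class, none was called higher and 2 were called lower, the repressor Tgif2 (697 against 3262, 3840.2 and 3271, adjusted p = 0.0030) and Tgif1 (3276 against 5295, 5580.1 and 5115, adjusted p = 0.015). With arrays shifted to a common median, Tgif1 was not called. Pbx3, a partner of HoxA9 on DNA, read 1332 against 1566, 1036 and 2061 (adjusted p = 0.78). Among 8 other Hox and ParaHox genes none was called higher and 2 lower, with a median of -0.77: Hoxc6 (426 against 1258, 1424 and 1207, adjusted p = 0.017), and Hoxb2 (25.4 against 171, 728 and 147, adjusted p = 0.036, with MLL-ENL and 2 of the 3 clones below the filter level, so that no fold is given). Hoxc6 was not called after quantile normalization or with a common median.

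**Figure D3:**
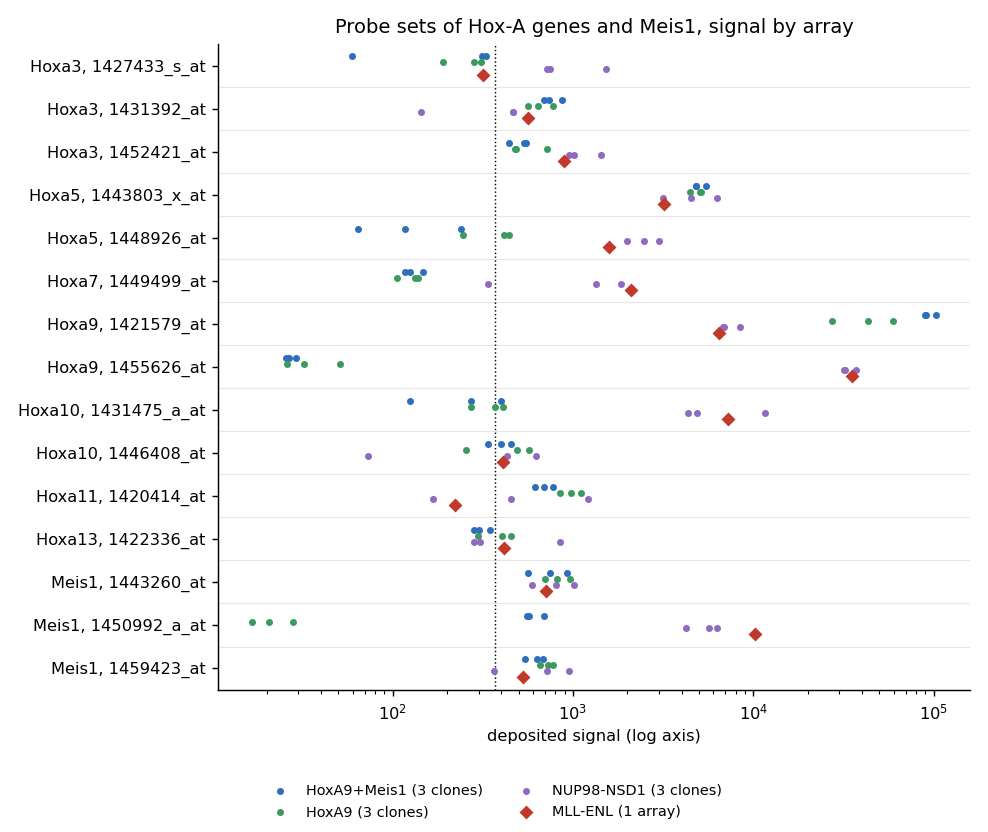
Deposited signal on a log axis for each kept probe set of the Hox-A genes and Meis1; each point is 1 array, the red diamond is MLL-ENL and the dotted line is the filter level of 369. MLL-ENL and NUP98-NSD1 lie together on both Hoxa9 probe sets, on opposite sides of the HoxA9+Meis1 clones.

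Neither partner gene of the fusion was called, and which probe sets read the fusion transcript was not tested. The MLL gene Kmt2a read 4655 against 3303, 3789 and 3624 (adjusted p = 0.20 by limma), the ENL gene Mllt1 1804 against 1934, 2656 and 2058 (adjusted p = 0.56), the MLL cofactor menin, Men1, 5762 against 4878, 6023 and 5684 (adjusted p = 0.79) and the histone methyltransferase Dot1l 3692 against 3708, 3762 and 3845 (adjusted p = 0.91). Of 29 genes of the MLL, menin, Dot1l and elongation complexes 4 were called higher and 2 lower, with a median of 0.14; this share is near the 21.7% of all genes. The count called higher was 1 without clone 2 and 0 with the mean of each gene's probe sets. With arrays shifted to a common median, Kmt2a was called and the counts were 9 higher and 2 lower. The elongation factor gene Ell2 read 365 against 2327, 2570.0 and 3193 (fall of at least 6.74-fold, adjusted p = 0.0035), and the HoxA9 clones lay at 71.0, 27.6 and 81.8. Mllt6, a partner of MLL in other fusions, fell 4.15-fold, from 5608, 5915 and 5075 to 1306 (adjusted p = 0.0017). Those called higher were the elongation cyclin Ccnt1, with 8319 against 5654, 5405 and 5522 (adjusted p = 0.0085), and 3 further genes: Aff1 with 6043 against 3846, 3313 and 2176 (adjusted p = 0.034, and 0.052 without clone 2), Nsd3 with 6819 against 4236, 3398 and 5000.0 (adjusted p = 0.032, and 0.061 and 0.057 without clones 1 and 2), and Mllt10 with 7547 against 6159.5, 5359 and 5507 (adjusted p = 0.044, and 0.10 and 0.082 without clones 2 and 3). None of the 3 kept probe sets of Mllt10 was called in the fit of all probe sets. The log2 differences of the 4 ran from 0.41 to 0.99.

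Genes that earlier work links to MLL fusion leukaemia were called in both directions. Of 25 measured, 3 were called higher and 7 lower, beside 9.34% and 12.3% of all genes, with a median of -0.19. Sox4, a transcription factor that blocks myeloid differentiation, read 14146 against 69322, 72304 and 61385, a 4.76-fold fall (log2 difference -2.25 ± 0.42, adjusted p = 0.0055 by limma). Of its 7 kept probe sets 6 were called lower. The survival gene Bcl2 read 2917 against 9033, 9579 and 7248 (adjusted p = 0.0034) and the corepressor Nrip1 312 against 4622, 4873 and 4256 (fall of at least 11.5-fold, adjusted p = 0.0091). Adgrg1, an adhesion receptor of stem cells, read 308 against 4798, 5610.5 and 2935 (fall of at least 10.8-fold, adjusted p = 0.0042). All 3 clones lay above MLL-ENL in each of these 4 genes. The repressor Bcl11a read 277 against 7651, 6873 and 2037 (fall of at least 11.9-fold, adjusted p = 0.020, 0.051 without clone 1 and 0.052 without clone 2), where clone 3 was the lowest clone and the bound was 18.1-fold without it.

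Those called higher included Zeb2, a zinc finger repressor, with 29867 against 7609, 7296 and 8687 (3.80-fold, adjusted p = 0.0013 by limma), and Lmo2, a bridging factor of stem cell complexes, with 58089.9 against 33392, 29929 and 35604 (1.77-fold, adjusted p = 0.0031). MLL-ENL was above all 9 other arrays for both on the probe sets given. The kept Zeb2 probe sets 1456389_at and 1458941_at were not called, at log2 differences of 0.11 and 0.46. HoxA9 clone 1 read above MLL-ENL on both, with 9031 against 6546 and 2524 against 2224. The G protein subunit gene Gnaq was the third, with 7107 against 4858, 3728 and 2477 (adjusted p = 0.0498, and 0.084 and 0.066 without clones 2 and 3), and the RNA-binding Msi2 was lower with 1768 against 3377, 3979 and 3494 (adjusted p = 0.012). Myb, a factor that keeps progenitors dividing, read 65419 against 66461, 64041 and 67952 on the probe set that stands for it. Its 2 other probe sets were called in opposite directions, at 0.49 (adjusted p = 0.0057) and -0.47 (adjusted p = 0.0090). Mef2c, a factor of lymphoid and monocytic priming, read 18591 against 26564, 24463 and 21466 (adjusted p = 0.067), and 1 of its 5 probe sets was called lower (-0.69, adjusted p = 0.033). The main probe set read 10619, 10618 and 10498 in NUP98-NSD1, below MLL-ENL (adjusted p = 0.0083). Mef2c was called lower against HoxA9+Meis1 after quantile or loess normalization and without clone 3.

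Stem and progenitor genes were mostly lower in MLL-ENL where they were called. Of 20 measured, 8 were called lower and 2 higher, beside 12.3% and 9.34% of all genes. At least 2-fold below the nearest clone lay 10, beside 12% of all genes. The median was -1.57 beside -0.14 over all genes. The count called lower was 6 after quantile normalization and 8 under a common median or loess, and 5, 6 and 6 without clones 1, 2 and 3. Mycn, a growth-promoting transcription factor, read 4258 against 95420.1, 96355 and 106123, a 23.1-fold fall (log2 difference -4.53 ± 0.36, adjusted p = 1.2e-04 by limma). The call was on 1 of its 2 kept probe sets. It lay below all 9 other arrays, with 42341, 37727 and 89551 in the NUP98-NSD1 clones and 77101, 88199 and 87084 in the HoxA9 clones. Angpt1, a ligand of the receptor Tie2, read 51.0 against 2199.5, 2064 and 3543 (fall of at least 6.37-fold, adjusted p = 0.0036).

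Cd34, the sialomucin of progenitors, read 2723 against 48216, 48720.3 and 50766, a 17.9-fold fall (log2 difference -4.16 ± 1.21, adjusted p = 0.036 by limma). The 3 clones agreed closely, but the spread of Cd34 in the other groups was large (32329.9, 29092 and 12432 in NUP98-NSD1, 97.8, 93.9 and 1845 in HoxA9), and the adjusted p was 0.069, 0.070 and 0.062 without clones 1, 2 and 3. Cd27, a receptor of early lymphoid-primed progenitors, read 366 against 7739.6, 10084 and 2553 (fall of at least 14.7-fold, adjusted p = 0.012; the bound without clone 3 was 22.1-fold). The Ets factor Erg read 1478 against 5730.1, 5966 and 7252 (fall of 4.18-fold, adjusted p = 0.0012), with 8139, 8133 and 7079 in NUP98-NSD1 and 13.6, 10.9 and 8.61 in HoxA9. MLL-ENL thus held a level of Erg between that of the HoxA9 clones and that of the other 2 groups. The blood-forming factors Tal1 and Gata2 and the vessel gene Egfl7 were also lower: Tal1 read 149.5 against 1836, 793 and 925 (adjusted p = 0.031, and 0.071 without clone 1), Gata2 901 against 2925, 3343 and 5079 (adjusted p = 0.037, and 0.0504, 0.064 and 0.075 without clones 1, 2 and 3) and Egfl7 1215 against 5437, 4414 and 6083 (adjusted p = 0.0029). Besides Lmo2, the Ets factor Fli1 was called higher, with 15628 against 12627, 12565 and 11231 (adjusted p = 0.049, and 0.072, 0.074 and 0.099 without clones 1, 2 and 3). Kit, the receptor for Stem Cell Factor, read 14242 against 18561, 16810.2 and 17906 and was not called (adjusted p = 0.41).

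Genes listed for the primary granules, the enzyme stores that promyelocytes make first, were mostly higher in MLL-ENL. The list also holds genes that are not enzymes of these granules, among them Ms4a3, Hp, Rab27a and Gstm1. Of 16 measured, 11 were called higher and none lower (0 at an unadjusted p under 0.05), beside 9.34% and 12.3% of all genes. The median was 0.84 beside -0.14 over all genes. The count was 9 after quantile normalization, 11 with a common median and 10 after loess, and 12, 11 and 11 without clones 1, 2 and 3. Elane, neutrophil elastase, read 198245 against 16717, 25137 and 13902, a rise of 11.0-fold (log2 difference 3.46 ± 0.27, adjusted p = 1.2e-04 by limma). The lysozyme gene Lyz2 read 103012 against 9283, 16726 and 4341 (11.7-fold, log2 difference 3.55 ± 0.62, adjusted p = 0.0042). Ms4a3, a membrane protein of granulocyte-monocyte progenitors, read 59817 against 10516, 12256 and 12169 (5.14-fold, adjusted p = 2.7e-04). In these 3 genes MLL-ENL lay at least 2.28 log2 units above the highest clone.

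The most abundant granule genes moved by less. Mpo, myeloperoxidase, read 221677 against 148102, 145387 and 151814 (log2 difference 0.58 ± 0.11, adjusted p = 0.0070 by limma), Ctsg, cathepsin G, 211001 against 118921, 107604 and 131229 (adjusted p = 0.0037), and Prtn3, proteinase 3, 159315 against 98316, 106330 and 81622 (adjusted p = 0.0075). Mpo and Prtn3 were not called after quantile normalization. Hp, haptoglobin, read 63681 against 27204, 25311 and 18132 (adjusted p = 0.0091), the granule proteoglycan Srgn 130771 against 72190.1, 71940.4 and 72638 (adjusted p = 3.0e-04), the vesicle GTPase Rab27a 12176 against 4517, 4280.1 and 4891 (adjusted p = 0.0026) and Ctsc, which activates the granule proteases, 25512 against 19617, 17307 and 16470.2 (adjusted p = 0.017). All 3 clones lay below MLL-ENL in each. Gstm1, a glutathione transferase, read 24935 against 9962, 5732 and 10815 (adjusted p = 0.0095). Fcnb, a ficolin of bone marrow, read 502 against 1909.7, 1779 and 638 and was not called (adjusted p = 0.23). The summed signal of the 16 genes was 1306330 in MLL-ENL, 576635 to 615244 in the clones and 1210690 to 1680410 in NUP98-NSD1. Against NUP98-NSD1, whose hybridization controls were like those of MLL-ENL, none of the 16 was called higher and 3 lower, beside 1.82% and 2.98% of all genes; the median was -0.17. Elane read 147012, 163069 and 199729 in the NUP98-NSD1 clones, and Mpo 196759, 216055 and 237929, on both sides of MLL-ENL.

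**Figure D4:**
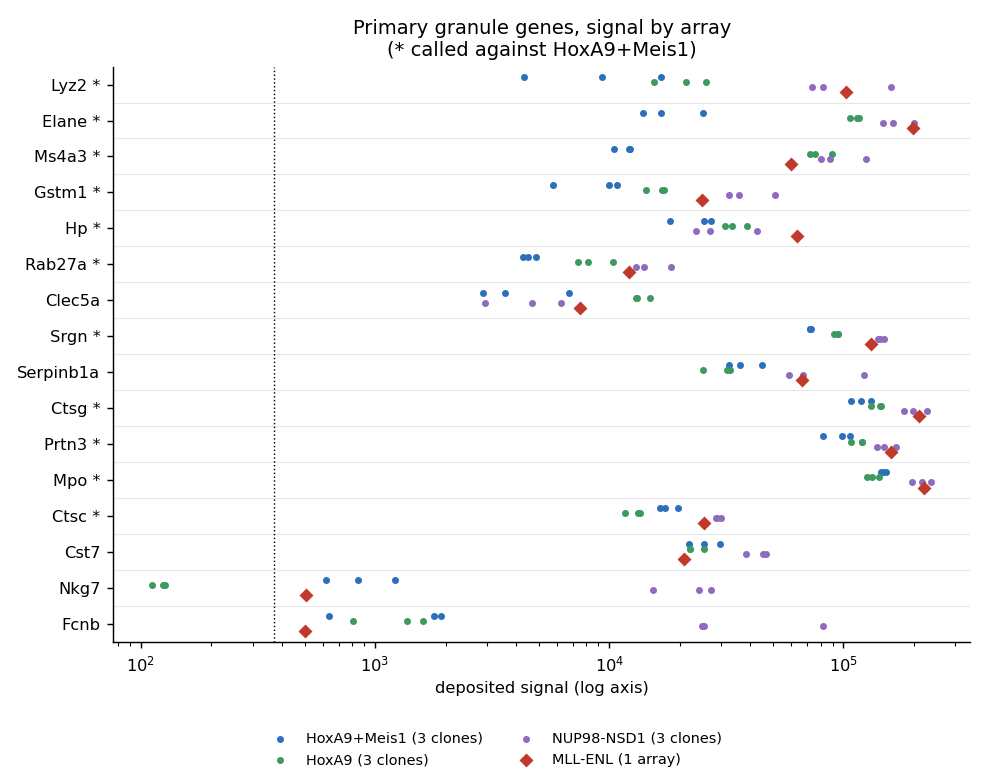
Deposited signal on a log axis of the 16 measured primary granule genes, ordered by log2 difference from HoxA9+Meis1; each point is 1 array, the red diamond is MLL-ENL, the dotted line is the filter level of 369 and an asterisk marks the 11 called genes. The HoxA9+Meis1 clones are the lowest group for Elane, Ms4a3 and Lyz2.

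The 3 genes with the largest rises, Elane, Lyz2 and Ms4a3, and the abundant Prtn3, Ctsg and Mpo are shown here by the 250 bases before their start, from RefSeq on GRCm38.p6, 5′ to 3′ on the gene's strand. Capitals mark matches to GAGGAA, a core recognised by the myeloid factor PU.1, searched on both strands. The windows are chr10:79886062-79886311 (+) for Elane, chr10:117282273-117282522 (-) for Lyz2, chr19:11640852-11641101 (-) for Ms4a3, chr10:79879417-79879666 (+) for Prtn3, chr14:56102575-56102824 (-) for Ctsg and chr11:87793534-87793783 (+) for Mpo, and the Prtn3 and Elane windows lie 6645 bases apart.
Elane: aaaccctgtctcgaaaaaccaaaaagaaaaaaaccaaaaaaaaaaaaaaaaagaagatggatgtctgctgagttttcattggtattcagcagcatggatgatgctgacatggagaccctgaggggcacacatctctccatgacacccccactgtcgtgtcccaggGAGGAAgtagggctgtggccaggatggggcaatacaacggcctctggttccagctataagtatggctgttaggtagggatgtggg
Lyz2: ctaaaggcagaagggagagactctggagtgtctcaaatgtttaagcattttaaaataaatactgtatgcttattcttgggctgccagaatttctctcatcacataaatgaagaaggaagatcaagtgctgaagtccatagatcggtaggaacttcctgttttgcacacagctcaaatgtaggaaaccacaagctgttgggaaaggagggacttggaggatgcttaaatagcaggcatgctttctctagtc
Ms4a3: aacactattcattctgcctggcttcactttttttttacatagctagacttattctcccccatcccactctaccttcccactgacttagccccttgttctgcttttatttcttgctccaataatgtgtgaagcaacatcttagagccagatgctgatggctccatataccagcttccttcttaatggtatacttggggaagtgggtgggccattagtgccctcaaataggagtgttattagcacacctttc
Prtn3: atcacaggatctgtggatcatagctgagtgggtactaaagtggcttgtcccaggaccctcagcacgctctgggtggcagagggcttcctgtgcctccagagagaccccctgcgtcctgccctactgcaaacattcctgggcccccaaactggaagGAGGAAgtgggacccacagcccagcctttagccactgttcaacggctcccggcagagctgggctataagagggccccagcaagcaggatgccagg
Ctsg: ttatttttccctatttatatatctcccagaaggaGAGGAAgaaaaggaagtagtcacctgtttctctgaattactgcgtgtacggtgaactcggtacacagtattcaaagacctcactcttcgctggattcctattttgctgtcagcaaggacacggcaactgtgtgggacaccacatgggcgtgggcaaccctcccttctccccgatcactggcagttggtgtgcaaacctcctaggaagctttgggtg
Mpo: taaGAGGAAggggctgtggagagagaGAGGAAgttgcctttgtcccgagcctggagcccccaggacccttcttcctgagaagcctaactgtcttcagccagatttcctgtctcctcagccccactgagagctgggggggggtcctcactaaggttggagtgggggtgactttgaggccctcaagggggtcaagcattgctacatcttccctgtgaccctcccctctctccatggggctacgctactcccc
The match began 85 bases before the start in Elane, 95 in Prtn3 and 216 in Ctsg, Mpo held matches at 247 and 224 bases, and the Lyz2 and Ms4a3 windows held none. Of the 11 genes called higher, 10 had a promoter in the table and 5 of these held GAGGAA, as did 22.5% of the 11453 windows of measured genes. The C/EBP letters TTGCNNAA, which do not overlap GAGGAA, were in 0 of these 10 windows and in 7.62% of the windows of measured genes. These were the only motifs searched, and a match describes the letters only. The transcript of PU.1 itself, Spi1, read 26254 against 17317, 15969 and 16337 (adjusted p = 0.032 by limma, and 0.055, 0.073 and 0.059 without clones 1, 2 and 3).

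Transcription factors of myeloid cells were mostly higher where they were called. Of 32 measured, 10 were called higher and 2 lower, beside 9.34% and 12.3% of all genes, with a median of 0.31. Leaving out clones 1, 2 and 3 gave 6, 6 and 8 higher. Maf, a factor of monocytes and macrophages, read 2259 against 113, 90.6 and 155 (rise of at least 5.71-fold, adjusted p = 0.0015 by limma), and 2986, 1584 and 1773 in NUP98-NSD1. Its other 2 kept probe sets were not called, at log2 differences of 2.57 (adjusted p = 0.12) and -1.70 (adjusted p = 0.34). Tfec, a helix-loop-helix factor of macrophages, read 36592 against 4137, 6411 and 3008 (8.44-fold, adjusted p = 9.5e-04). Cebpb and Cebpd, basic leucine zipper factors of granulocyte and monocyte genes, read 46193 against 14152, 10151 and 12888 (adjusted p = 9.5e-04) and 22714 against 10735, 7766 and 7030.4 (adjusted p = 0.0089). MLL-ENL was above every clone in these 4 genes on the probe sets given. The other kept probe set of Cebpd, 1456605_at, read 836 against 797, 953 and 837 and was not called (log2 difference -0.04). The related Cebpa read 29219 against 26290.5, 25367 and 41122 and was not called (adjusted p = 0.91). The growth-factor independence repressors split: Gfi1 read 13118 against 6114, 4649.8 and 7631 (adjusted p = 0.028, and 0.056 and 0.060 without clones 1 and 2), while Gfi1b read 244 against 2486, 2932 and 2581 (fall of at least 6.71-fold, adjusted p = 0.022, and 0.054 without clone 2).

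Among 23 cytokine and growth factor receptors 6 were called higher and 3 lower, beside 9.34% and 12.3% of all genes. The median was 0.19. Csf2ra, the ligand-binding chain for GM-CSF, read 27387 against 1269, 3424 and 1981, a 13.2-fold rise on 1 of its 2 kept probe sets (log2 difference 3.72 ± 0.55, adjusted p = 0.0020 by limma). The cultures had been derived without GM-CSF, and the HoxA9 clones read 16953, 15957 and 19735. Tnfrsf1b, a receptor for tumour necrosis factor, read 20183 against 3259.5, 3402 and 2336 (6.76-fold, adjusted p = 7.3e-04), above all 9 other arrays on this probe set. Its other kept probe set, 1448951_at, read 2614 against 659, 2220 and 2063 and was not called (log2 difference 0.84). The HoxA9 clones lay above MLL-ENL there, at 2883, 3162 and 4082. Csf3r, the receptor for G-CSF, read 8547 against 3172, 2385 and 3062 (2.98-fold, adjusted p = 0.0054). Csf1r, the macrophage growth factor receptor, read 38226 against 22191, 31553 and 6953 and was not called (adjusted p = 0.23). All 3 clones lay below MLL-ENL, clone 2 the nearest and clone 3 the furthest. The 3 kept Csf1r probe sets were all higher, at log2 differences of 1.17, 1.25 and 1.28. The last, 1423593_a_at, was called, with 11758 against 5532, 6385 and 3170 (adjusted p = 0.019 by limma over all probe sets). The other 3 receptors called higher were Il10rb with 26840.1 against 11051, 10726 and 13189.5 (adjusted p = 0.0037), Csf2rb with 23552 against 12212, 12631 and 12354 (adjusted p = 0.032, and 0.067, 0.062 and 0.057 without clones 1, 2 and 3) and Ifngr1 with 22568 against 13781, 13364 and 11233 (adjusted p = 0.045, and 0.067, 0.075 and 0.090 without clones 1, 2 and 3). Il7r, the interleukin 7 receptor, was lower with 489 against 7093, 5883 and 1326 (adjusted p = 0.029, 0.070 and 0.075 without clones 1 and 2; 7.40-fold, and 12.5-fold without clone 3).

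B lymphoid genes were called in 1 direction. Of 15 measured, none was called higher (0 at an unadjusted p under 0.05) and 6 lower, beside 9.34% and 12.3% of all genes. The median was -1.89, and 9 were at least 2-fold below the nearest clone, beside 12% of all genes. The count called lower was 3 under each of the 3 scaling alternatives, and 3, 3 and 6 without clones 1, 2 and 3. Vpreb1, part of the surrogate light chain of early B cells, read 25.2 against 3731, 2893 and 317 (fall of at least 3.90-fold, adjusted p = 0.025 by limma). Its adjusted p was 0.067 and 0.068 without clones 1 and 2, and the bound was 2.52-fold without clone 1 and 8.27-fold without clone 3, the dimmest. The B cell receptor chain Cd79a read 30.9 against 729, 1122 and 345 (fall of at least 1.72-fold, adjusted p = 0.014), and Ms4a1, the CD20 gene, 71.1 against 692, 713 and 749 (fall of at least 1.87-fold, adjusted p = 0.0042). The E-protein Tcf3 was lower on all 3 of its probe sets, the brightest reading 4922 against 8251, 9018 and 8609 (adjusted p = 0.0050), and Vpreb3 read 159 against 875, 1331 and 967 (adjusted p = 0.042, and 0.069, 0.099 and 0.069 without clones 1, 2 and 3). The summed signal of the 15 genes was 32836 in MLL-ENL, 51773 to 87174 in the clones and 14262 to 17506 in NUP98-NSD1, and 9 of the 15 lay below the filter level in MLL-ENL. Of 9 T and NK cell genes limma called none in either direction (median -0.88), with 0 higher and 2 lower at an unadjusted p under 0.05.

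Dendritic cell and MHC class II genes were also called in 1 direction. Of 17 measured, none was called higher (0 at an unadjusted p under 0.05) and 5 lower, beside 9.34% and 12.3% of all genes. The median was -1.04, and without clones 1, 2 and 3 the count lower was 3, 4 and 6. H2-Ob, a chain of the peptide-loading chaperone H2-O, read 27.1 against 3665, 3707 and 3023 (fall of at least 8.68-fold, adjusted p = 0.0049 by limma; 315, 7.96 and 33.8 in NUP98-NSD1), and its partner chain H2-Oa 1080.5 against 3355, 3067 and 3831 (adjusted p = 0.0092). Both chains were lower in MLL-ENL. The chemokine receptor Xcr1 read 81.7 against 759, 634 and 568 (adjusted p = 0.021, and 0.058 without clone 1). Itgax, the CD11c integrin chain, read 679 against 9914, 7384 and 2274 (adjusted p = 0.020, 0.0503 and 0.055 without clones 1 and 2; 7.79-fold, and 12.1-fold without clone 3). The summed signal of the 17 genes was 26119 in MLL-ENL, 62343 to 93256 in the clones and 26062 to 27120 in NUP98-NSD1.

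Monocyte and macrophage genes gave 3 called higher and 1 lower of 20, with a median of 0.16, a share near the 21.7% of all genes. The chemokine receptor Ccr2 read 76090.4 against 35688, 35491 and 37158 (2.11-fold, adjusted p = 0.0013 by limma) and Gpnmb, a glycoprotein of macrophages, 3901 against 645, 318 and 794 (at least 6.47-fold with 2 of 3 clones above the filter level, adjusted p = 0.0065). F13a1, the coagulation factor XIII chain of monocytes, read 117308 against 73127, 76324 and 85038 (adjusted p = 0.0054) and was not called after quantile or loess normalization. The high-affinity Fc receptor Fcgr1 was called lower, with 331 against 869, 1068 and 769 (adjusted p = 0.022, and 0.059 without clone 2), and under none of the 3 scaling alternatives. Late neutrophil genes gave other counts than those of the primary granules: of 19 measured, none was called higher (3 at an unadjusted p under 0.05) and 3 lower, with a median of -0.33, and 1 was called lower under each scaling alternative. S100a9, a calprotectin chain, read 91.4 against 36682, 21773 and 1708 (fall of at least 27.8-fold, adjusted p = 0.013; at least 15.3-fold without clone 1 and 70.5-fold without clone 3). Ltf, lactoferrin, read 23.2 against 703, 1057 and 824 (fall of at least 2.20-fold, adjusted p = 0.042, and 0.071, 0.090 and 0.069 without clones 1, 2 and 3). Mmp9, a gelatinase, read 87.4 against 883, 582 and 578 (adjusted p = 0.049, and 0.11, 0.082 and 0.071 without clones 1, 2 and 3). Clones 1 and 2 were far brighter than clone 3 for S100a9, and NUP98-NSD1 was brighter still at 168207, 197465 and 268316. Cd177, a neutrophil surface protein, read 3318 against 110.4, 228 and 104 and was not called (adjusted p = 0.059).

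Of 16 mast cell, basophil and eosinophil genes, none was called higher (1 at an unadjusted p under 0.05) and 1 lower, the basophil protease Mcpt8 with 914 against 21370.3, 11279 and 8816 (adjusted p = 0.014 by limma). The median was 0.63, and 8 of the 16 lay below the filter level in MLL-ENL. Their summed signal was 7362 in MLL-ENL, 16168 to 25780 in the clones and 70873 to 365088 in NUP98-NSD1. Erythroid genes gave 2 called lower of 12 (median -0.32), the erythropoietin receptor Epor with 456 against 1414, 1275 and 1149.7 (adjusted p = 0.036, and 0.082, 0.073 and 0.052 without clones 1, 2 and 3) and the transferrin receptor Tfr2 with 609.7 against 1524, 1475 and 1226 (adjusted p = 0.025, and 0.061 and 0.059 without clones 1 and 2). Megakaryocyte genes gave 1 higher of 10 (median -0.54), the shared erythroid factor Nfe2 with 23647 against 15152, 14718 and 19136 (adjusted p = 0.034, and 0.081 and 0.080 without clones 1 and 2). Stromal, fibroblast and endothelial genes gave 1 higher and 2 lower of 15 (median -0.89): the filament gene Vim read 113812 against 89789, 75308 and 67902 (adjusted p = 0.0499, and 0.10 and 0.10 without clones 2 and 3), the endothelial cadherin Cdh5 74.5 against 249, 412 and 479 (adjusted p = 0.038, and 0.086 and 0.087 without clones 2 and 3) and the collagen chain Col1a2 616 against 1478, 1520.1 and 1100.5 (adjusted p = 0.044, and 0.098 and 0.10 without clones 1 and 2). After quantile normalization none of these erythroid, stromal or megakaryocyte genes was called.

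Several receptors of innate recognition were higher. Of 18 C-type lectins and Fc receptors 5 were called higher and 2 lower, beside 9.34% and 12.3% of all genes. The median was 0.65. Clec7a, the beta-glucan receptor dectin, read 12418 against 2397, 2339 and 2001 (5.48-fold, log2 difference 2.45 ± 0.18, adjusted p = 1.2e-04 by limma). Clec4a2, an inhibitory lectin, read 6821 against 870.1, 991 and 488 (8.75-fold, adjusted p = 0.0024), while Clec4d, an activating one, was lower with 3923 against 19373, 13633 and 16861 (adjusted p = 0.0025). The lectins thus split. The others called higher were Trem3 with 33020.5 against 9212, 8316 and 7231 (adjusted p = 0.0037), Clec4n with 2828 against 797, 1047 and 791 (adjusted p = 0.010) and the low-affinity Fc receptor Fcgr3 with 39416 against 5609, 4044 and 10244 (adjusted p = 0.037, and 0.077 and 0.087 without clones 1 and 2). Of 24 adhesion molecules 3 were called higher and 5 lower (median -0.32), among them Itgb7, the beta chain of a gut-homing integrin, with 976 against 10329.8, 7513 and 5215 (7.37-fold lower, adjusted p = 0.0063) and the collagen receptor chain Itga2 with 44.6 against 679, 761 and 441 (adjusted p = 0.0068). The leukocyte integrin chain Itgb2 was higher with 28389.9 against 11853, 10589 and 10274 (adjusted p = 0.048, and 0.077, 0.095 and 0.085 without clones 1, 2 and 3). Chemokines and their receptors gave 1 higher, Ccr2, and 1 lower of 16 (median -0.55), the neutrophil attractant Cxcl1 with 2001 against 3115, 3107 and 3474 (adjusted p = 0.039, and 0.071, 0.071 and 0.084 without clones 1, 2 and 3). Regulators of G protein signalling gave 3 higher and 2 lower of 17 (median -0.55), among them Rgs2 with 17129 against 8289.9, 9447 and 8938 (adjusted p = 0.021, and 0.052 without clone 1) and Gpsm3 with 14266 against 6457, 6436 and 6345 (adjusted p = 0.012) higher and the receptor Gpr171 with 1486 against 9031, 10002 and 5321 (adjusted p = 0.030, and 0.073 and 0.078 without clones 1 and 2) lower.

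Interferon response genes gave 4 called higher and 1 lower of 24, with a median of 0.27, a share near the 21.7% of all genes. Oas1a, an antiviral oligoadenylate synthetase, read 7399 against 1419, 604 and 835 (adjusted p = 0.0022 by limma) and Ifit2 4435 against 666, 961 and 982 (5.02-fold, adjusted p = 0.0032). Both also lay above the NUP98-NSD1 clones. The RNA sensor Ifih1 read 4907 against 1529, 1799.6 and 2194 (adjusted p = 0.0049) and the GTPase Gbp3 7272 against 3243, 4168 and 3337 (adjusted p = 0.012), and Ifitm1 was the 1 gene called lower. Immediate early genes, which respond within minutes to growth signals, gave 1 higher and 5 lower of 20 (median -0.72), and with a common median 3 higher and 2 lower. The phosphatase Dusp2 read 2009 against 9744, 9118 and 8645 (4.50-fold lower, adjusted p = 0.0021), and the AP-1 member Fosl2 13616 against 3731, 2794 and 4925 (3.64-fold higher, adjusted p = 0.0015). Dusp1 read 603 against 1398, 1219.8 and 1819 (adjusted p = 0.019) and Ier2 8166 against 18001, 13759 and 20028 (adjusted p = 0.0077), both lower.

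Genes of cell division were called about as often as the 21.7% of all genes. Of 23 DNA replication and mitosis genes 3 were called higher and 3 lower (median -0.04), and none lay at least 2-fold beyond the nearest clone. Of 16 cell cycle regulators 3 were called higher and 1 lower (median 0.00). The largest difference was that of Cdkn2c, an inhibitor of the D-cyclin kinases, with 54106 against 10200.4, 10715 and 9038, a 5.42-fold rise (log2 difference 2.44 ± 0.29, adjusted p = 8.2e-04 by limma). It stood above all 9 other arrays, the NUP98-NSD1 clones reading 4337, 4616 and 6939 and the HoxA9 clones 10480.1, 17013 and 11694. A second inhibitor, Cdkn1b, read 8409 against 4539, 4320.1 and 4136 (adjusted p = 0.0054), and the S phase cyclins split, Ccne1 with 4483 against 6523, 6270.5 and 7134 (adjusted p = 0.024, and 0.051 and 0.055 without clones 1 and 3) and Ccne2 with 5277 against 3741, 3093 and 3062 (adjusted p = 0.040, and 0.089 and 0.077 without clones 2 and 3). In the Bcl2 family 2 were called higher and 2 lower of 13 (median 0.03). The survival factor Mcl1 read 44621 against 26127, 25439.5 and 25688 (1.73-fold, adjusted p = 0.0015), and 5 of its 6 probe sets were called higher, whereas Bcl2 was lower. The death-promoting gene Bak1 read 13296 against 5988, 5900.0 and 5596 (2.28-fold, adjusted p = 0.0015), and the death activator Hrk was lower with 269 against 1437, 1648 and 1177 (adjusted p = 0.0076). The other kept Bak1 probe set, 1425716_s_at, read 1552 against 1935, 1756 and 2257 and was not called (log2 difference -0.34).

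Ribosomal and lysosomal counts moved with the scaling of the arrays. Of 19 cytosolic ribosomal protein genes 12 were called higher and none lower (0 at an unadjusted p under 0.05), beside 9.34% and 12.3% of all genes. The median was 0.44. After quantile normalization the count was 1 higher and 1 lower, after loess 4 higher, and against NUP98-NSD1 none of the 19 was called in either direction (median -0.01). Rpl22 was the largest at 182268 against 113828, 102723 and 112214 (adjusted p = 0.0017 by limma), and its level in NUP98-NSD1 was 169625, 182108 and 182675. Beyond these alternatives, the part of array scale in this result was not tested. Of 18 lysosomal genes 6 were called higher and none lower (0 at an unadjusted p under 0.05; median 0.49; 4, 9 and 3 higher after quantile, common-median and loess scaling), led by the protease Ctsb with 71262 against 40923, 35851 and 32105 (adjusted p = 0.020). The lysosomal membrane genes Lamp1 with 105700 against 56399, 53374 and 58177 (adjusted p = 0.019) and Lamp2 with 50653 against 26601, 30564 and 26541 (adjusted p = 0.013) rose with it.

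In glycolysis and the pentose phosphate pathway 3 were called higher and 2 lower of 19 (median -0.04). Pgd, which makes NADPH in the oxidative branch, read 95797 against 25704, 25393 and 34219 (3.40-fold, adjusted p = 0.0051 by limma), with all 4 of its probe sets called higher, and the lactate exporter Slc16a3 4166 against 640.3, 973 and 529 (5.80-fold, adjusted p = 0.0096). Taldo1, of the same pathway, read 53621 against 35643, 27109 and 33499 (adjusted p = 0.022, and 0.0501 without clone 2), and the glycolytic kinase Pgk1 was lower with 94889 against 141219, 125330 and 137954 (adjusted p = 0.0074), as was Slc2a3 given above. Sterol and fatty acid synthesis gave 1 higher and none lower of 19 (median 0.03), the last enzyme of cholesterol synthesis, Dhcr7, with 7807 against 4058, 4783 and 5227 (adjusted p = 0.011). Of 6 high-mobility-group genes none was called higher (0 at an unadjusted p under 0.05) and 4 lower (median -2.37), with Hmgb3, a chromatin protein of progenitors, at 9138 against 26639.7, 28137 and 28666 (3.04-fold lower, adjusted p = 1.3e-04) beside Hmgn1. Hmgn3 read 38.0 against 286, 4832 and 12862 (fall of at least 6.76-fold, adjusted p = 0.047, 0.11 and 0.089 without clones 2 and 3; at least 19.7-fold without clone 1 and 3.10-fold without clone 3), and clone 1 lay within the range of the NUP98-NSD1 clones. Hmgn5 read 10150 against 16048, 14559 and 16748 (adjusted p = 0.0079).

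The remaining lists gave mixed counts. Ets and Krueppel-like factors were called higher in 3 and lower in 4 of 22 (median 0.02), with Elf4 at 1517 against 3096, 3434 and 3369 (adjusted p = 0.011) and Elk3 at 10929 against 20432, 20797 and 17710.3 (adjusted p = 0.0036) lower. TGF-beta receptors and proteoglycans were called higher in 3 and lower in 2 of 18 (median -0.15), led by the betaglycan gene Tgfbr3 with 2558 against 154, 136 and 604 (at least 5.53-fold with 1 of 3 clones above the filter level, adjusted p = 0.014 by limma; log2 difference 3.26, and 3.87 without clone 3), on 1 of its 2 kept probe sets. The signal transducer Smad3 was lower with 1701 against 4443, 4029 and 3407 (adjusted p = 0.025, and 0.063 and 0.057 without clones 1 and 2). Prostaglandin and leukotriene enzymes were called higher in none and lower in 2 of 14 (median 0.24), the prostaglandin D synthase Ptgds reading 370.3 against 2287, 1379 and 1462 (adjusted p = 0.0047) and the prostaglandin E synthase Ptges 180.0 against 939, 992 and 1448 (adjusted p = 0.012). Stefins, cystatins and serpins were called higher in 1 and lower in 1 of 13 (median 0.56), the cysteine protease inhibitor Cst3 with 65503 against 35969, 41971 and 37122 (adjusted p = 0.022, and 0.056 without clone 1) and the leukocyte protease inhibitor Slpi with 18941 against 44832, 35818 and 40191 (adjusted p = 0.025, and 0.064 without clone 1).

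**Figure D5:**
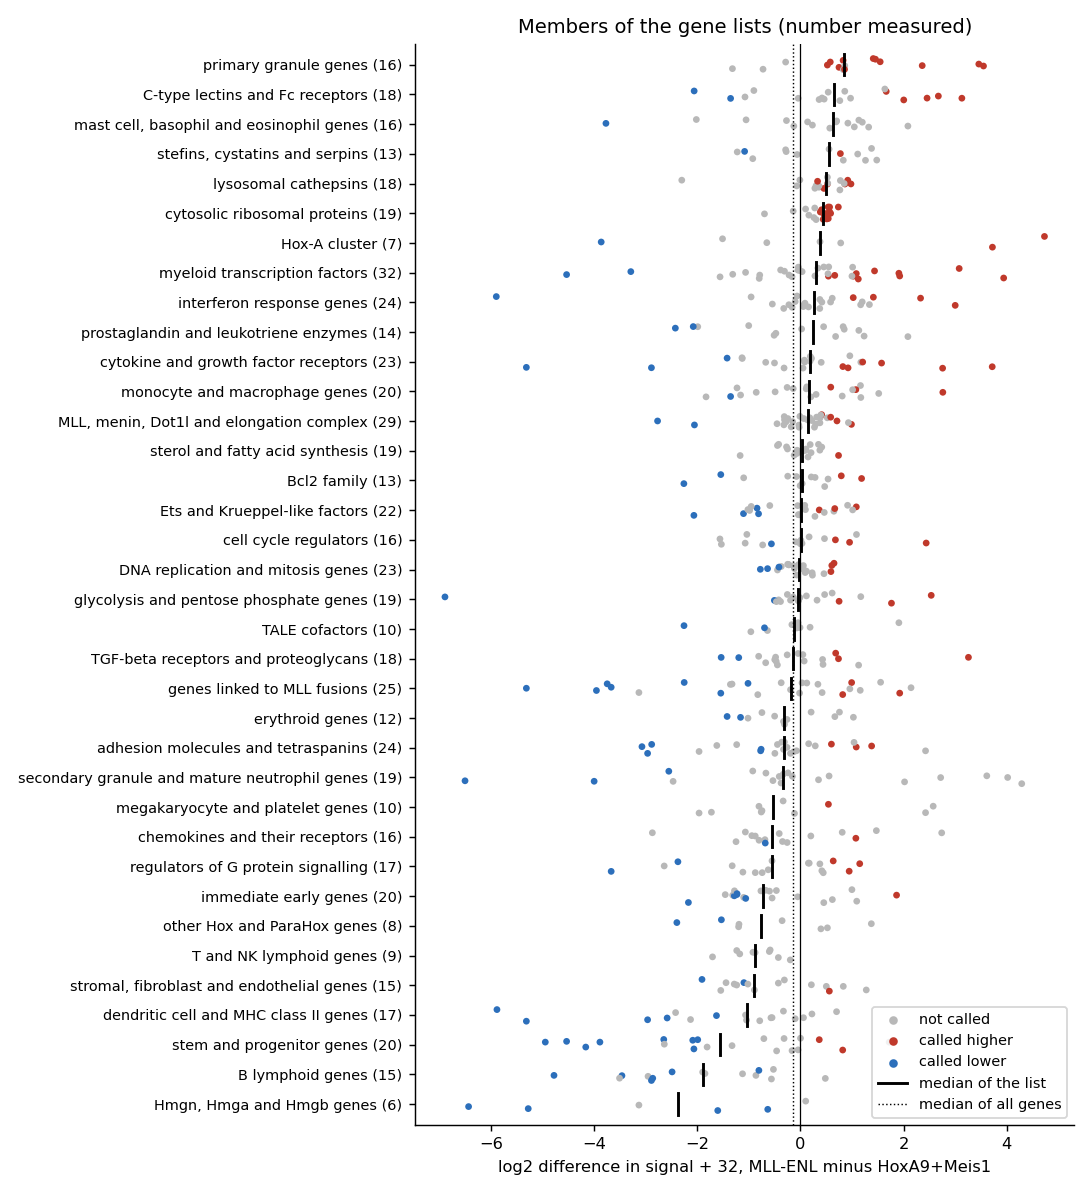
Log2 difference of signal + 32 between MLL-ENL and the mean of the HoxA9+Meis1 clones for every measured member of each list; red and blue points are called members, short bars are list medians and the dotted line is the median of all genes at -0.14. Primary granule genes have the highest median at 0.84 and the high-mobility-group genes the lowest at -2.37.

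Measured against all 9 other arrays, MLL-ENL lay at least 2-fold above the highest in 30 genes (0.211%). It lay at least 2-fold below the lowest in 340 (2.39%). The filter left out genes lit in MLL-ENL only and kept those dim in MLL-ENL only, so the 2 counts cannot be weighed against each other. With arrays shifted to a common median they were 80 and 229. Those furthest above included Sgip1, an endocytic adaptor, with 11154 against 1033, 489 and 277 (adjusted p = 0.0033 by limma), the lectin Cd302 with 3516 against 169.7, 38.4 and 202 (adjusted p = 0.016) and the efflux transporter Abcg2 with 3569 against 320.2, 204 and 380.1 (adjusted p = 0.0067). All 6 NUP98-NSD1 and HoxA9 clones read at most 905 for Sgip1. Ap1s2, a subunit of the clathrin adaptor, read 21328 against 5801, 6159.6 and 4745 (adjusted p = 7.2e-04), and the kinase Camk1 8314 against 186, 162 and 256 without a call (adjusted p = 0.065).

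Those furthest below were mostly genes of low signal. Besides Slc2a3, Ltf and Mycn they were the channel-like gene Tmc4 (65.7 against 1005, 929.6 and 1251), the pseudogene Zfp862-ps (18.6 against 431, 601 and 827), the microtubule-binding Clip3 (38.1 against 624, 709.5 and 588), the intermediate filament gene Synm (37.5 against 907, 1019 and 903) and Smo, the Hedgehog signal transducer (39.8 against 814, 1927 and 2491). All 5 were called lower by limma, at adjusted p from 7.9e-04 to 0.017, and MLL-ENL was below the filter level for each. Smo was not called when probe sets with a cross-matching suffix were left out. Ltf, as given above, lost its call without any 1 clone.

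Against the other groups the MLL-ENL array gave 683 called genes (4.80%) beside NUP98-NSD1, 259 higher and 424 lower, and 2083 (14.6%) beside HoxA9, 813 higher (5.71%) and 1270 lower (8.92%). Without NUP98-NSD1 clones 1, 2 and 3 the first count was 430, 371 and 1442, and without HoxA9 clone 2 the second was 1342. All 3 comparisons share the MLL-ENL array. Across genes, the correlation of log2 signal between MLL-ENL and the HoxA9+Meis1 clones was 0.879 to 0.894, below that among the 3 clones (0.952 to 0.961). With the NUP98-NSD1 clones it was 0.895 to 0.916 and with the HoxA9 clones 0.897 to 0.917. These are descriptions of single arrays, and genes are not independent replicates.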

How the data were processed

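RNA of 10 cultures was hybridized to 1 array each, per the labels' protocols. The table deposited by the authors gives linear intensities, 1 for each probe set of each array. Which software, background correction and normalization made it is not given in the sources used here, and scanner files were not used here. The mean of the deposited intensities without the lowest and highest 2% was 2500.01 to 2500.02 on the 10 arrays, so they had been scaled. Signals were analysed as log2(signal + 32) without further scaling. The number of arrays limits the precision.

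Of 45101 probe sets, 34945 had 1 gene symbol in the platform annotation, 932 had several and 9160 none, and 64 were controls. Symbols were updated through Entrez identifiers for 34754 probe sets. A probe set was kept where its signal passed 369, the 40th percentile, in at least 3 arrays. A gene was read from its kept probe set with the highest mean, which left 14233 genes. Of 805 genes with 2 or more called probe sets, 147 had calls in opposite directions.

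The test was limma 3.58.1 in R 4.3.3: 4 group means over the 10 arrays (6 residual degrees of freedom), eBayes with a trend, and Benjamini-Hochberg adjustment over all genes, called at 0.05. The single MLL-ENL array was assumed to vary like the other clones. The script was tested on simulated data. Folds are of signal + 32. Where the dimmer group lay below 369, the fold is "at least" the brighter group's mean over that level, with only the dim clones set at it where some lay above, a choice made after the data were seen. Of the 157 called genes named, 55 had further kept probe sets that were not called in that direction. Tables were made with pandas 2.3.3 and figures with matplotlib 3.10.9.

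Named genes were the 12 largest called rises and falls outside the clone range (genes with opposed probe sets left out), the 8 furthest above and below all 9 other arrays, up to 4 leading called members of each list with others whose value stands beside the list's count, and a set of Hox-A, MLL and progenitor genes. The members and lists were chosen with earlier results of these data known. Alternatives were 3 scalings, offsets of 1 and 100, other filters, other rules for probe sets, other eBayes settings, a fit of 4 arrays, the clone number as a block, and each clone left out.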

Additional observations from a re-analysis of the deposited data

How the results depend on the processing

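With arrays shifted to a common median, MLL-ENL was called higher than HoxA9+Meis1 in 2312 genes and lower in 719. With every probe set as a row, 6200 were called, 2370 higher and 3830 lower. Leaving out 1 HoxA9+Meis1 clone gave 2150 to 2646 called genes, 986 to 1201 higher and 1164 to 1445 lower. The remaining alternatives stayed within 1.5 times of 3083, 1330 and 1753. Against NUP98-NSD1, the common median gave 250 lower, and leaving out 1 of its clones gave 371 to 1442 called, 126 to 622 higher and 245 to 820 lower. Against HoxA9, quantile normalization gave 1320 called, 499 higher and 821 lower. The common median gave 1925 higher and 518 lower there, and leaving out 1 HoxA9 clone gave 1342 to 1517 called, 569 to 656 higher and 773 to 861 lower.

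At 2-fold beyond the nearest clone, the common median gave 1450 above and 1027 below, loess 1132 below, and the 60th percentile filter 1342 in all and 907 below. At 4-fold there were 673, 139 above and 534 below, and at any distance 11089, 4454 above and 6635 below. Below all 9 other arrays there were 224 genes after quantile normalization and 214 with an offset of 100, which gave 241 in all. Above them there were 80 with a common median.

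Some genes changed sign through their probe sets: Hoxa9 read 2.68, Hoxa5 1.35, Meis1 1.25 and Nsd3 -0.069 as the mean of the kept probe sets. Hoxa5 read 3.35 with suffixed probe sets left out. Meis1 read 3.87 with an offset of 100 and 4.004 with the 60th percentile filter, which chose another probe set. For the other results that moved, the cause was not tested. Of the 157 called genes named above, 78 stayed called under every alternative in which they were measured. Some were not measured with the 60th percentile filter or with suffixed probe sets left out. The fit with every probe set as a row was not part of this count. Leaving out a clone lost 43, eBayes without trend 35, quantile normalization 29, the mean of probe sets 28, loess 24 and the common median 22.

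The filter met in at least 1 array, chosen after seeing the data, gave 1285 higher and 1699 lower. With the clone number as a replicate block, 1202 were called higher and 1485 lower, and 13 named calls were lost. Deviations of same-numbered clones of different groups correlated at -0.0697 to 0.0375, and those of differently numbered clones at -0.0635 to 0.0701. No pairing by number was thus seen, though a weak one could go unseen here. MLL-ENL has no clone number. Signals below 369 have no reliable order.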

Other observations

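The 3 HoxA9+Meis1 clones were not alike in lineage genes, and clone 3 stood apart in a number of them. These genes were picked after their values were seen, and no test was run. The B cell receptor chain Cd79b read 6294 in clone 1, 3311 in clone 2 and 305 in clone 3, and the surrogate light chain gene Igll1 1724, 4239 and 296. The macrophage pore protein gene Mpeg1 read 21475, 28387 and 4775, the lymphocyte-homing receptor Gpr183 5144, 5600.2 and 840.1, and the lysosomal protease Ctsh 2586, 4252 and 220.4. In the other direction, the stem cell factor gene Hlf read 485, 637 and 3206, and Thbs1, thrombospondin, 945, 1865 and 8415. On the MLL-ENL array these 7 genes read 852 for Cd79b, 86.9 for Igll1, 40986 for Mpeg1, 439.8 for Gpr183, 255 for Ctsh, 264 for Hlf and 14863 for Thbs1.

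Further genes left out by the filter, also picked after their values were seen, were bright in MLL-ENL alone. Pdlim4 read 976 there and at most 95.0 in the other 9 arrays, the metallothionein Mt3 946 and at most 112, and the homeobox gene Hoxb13 855 and at most 121.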
